A study of Mus musculus with 30 samples.

Results

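The *Hox* cluster genes encode homeodomain transcription factors that give cells their position along the body axis. They were taken as every gene whose symbol in the platform annotation is *Hoxa*, *Hoxb*, *Hoxc* or *Hoxd* followed by a paralogue number from 1 to 13, without antisense transcripts, and where a gene had several probe sets the one with the highest 30-cell mean stood for it. The rule gave 33 of the 18194 genes with 1 annotated symbol, and 48 of the 45101 probe sets. All 33 members were found in RefSeq (GRCm38) by gene identifier. *Hox* genes without a probe set under a symbol of their own were not analysed here. The members comprised 9 *Hoxa* genes on chromosome 6, 9 *Hoxb* genes on chromosome 11, 7 *Hoxc* genes on chromosome 15 and 8 *Hoxd* genes on chromosome 2.

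Within each cluster, the genes stand on the chromosome in the order of their paralogue numbers, and those with low numbers are switched on first, in the posterior primitive streak and the mesoderm that leaves it. PGCs arise among these mesodermal cells at the base of the allantois, and the repression of *Hox* genes, with *Hoxb1* as a commonly used example, is known as a mark that separates early PGCs from their somatic neighbours. PRDM1 and PRDM14 are transcriptional regulators required for the specification of PGCs, and *Dppa3* is a marker of established PGCs.

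The experiment measured gene expression in single PGCs of C57BL/6 embryos at E7.25-E7.5, obtained by crossing *Prdm14*+/- mice. Cells were picked by capillary from the dissected base of the allantoic bud, their cDNA was amplified, *Prdm1*-positive cells were taken as PGCs by PCR, and 1 cell was hybridised to each Affymetrix array. No treatment was given. The deposited labels give 13 cells as WT (*Prdm14*+/+), 13 as *Prdm14*+/- and 4 as *Prdm14* KO (*Prdm14*-/-). The codes in the sample titles fall into 3 array sets. Set 1 held 10 cells labelled WT, set 2 held 3 labelled WT and 7 labelled *Prdm14*+/-, and set 3 held 6 labelled *Prdm14*+/- and the 4 labelled KO, so cells labelled WT and KO shared no set. Cells are identified below by the numbers in their titles. No embryo is named, so each label counts as 1 sample, no test was run, and SDs and intervals describe the spread between cells and counting error only.

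Levels are log2 MBEI, the model-based expression index of the array software. A value above 6 (64 MBEI) was counted as above the floor, lower values were set to 6 and have no order, and a value above 8 served as a second, stricter level. *Prdm14* ran against the labels, with means of 7.40 in the cells labelled WT, 9.70 in those labelled *Prdm14*+/- and 11.40 in those labelled KO, so every difference below is between labels. The position of its probe set relative to the deletion is not stated by the labels or methods, so the transcript may not check the label. Other germ cell markers ran the same way, since the mean level of 7 of the 9 measured, *Prdm14* included, exceeded that for the label WT by 1 or more under the label KO, with means of 9.05 (WT) and 12.55 (KO) for *Dppa3*. Whether the labels WT and KO are exchanged was not tested, and an exchange would turn the sign of every difference between KO and WT given below. All 30 cells exceeded the floor for *Prdm1* and 24 for *Dppa3*. The share of all genes above the floor in a cell averaged 38.4% for the label WT, 39.0% for *Prdm14*+/- and 40.9% for KO. Of 10 blood and endothelial markers, *Gata1*, *Hba-x*, *Hbb-bh1* and *Runx1* were at the floor in every cell, but *Lmo2* was above it in 18 cells, *Kdr* in 10 and *Etv2* in 6. Of 10 endoderm markers, *Afp*, *Ttr* and *Apoa1* were at the floor in every cell, but *Sox17* was above it in 23. The summed level of the blood and endothelial list ran from 60.0 to 65.1 for the label WT, 60.0 to 69.4 for *Prdm14*+/- and 63.6 to 68.6 for KO, where 60 means that all 10 genes were at the floor, and that of the endoderm list from 60.0 to 68.7, 60.0 to 68.2 and 64.5 to 67.9. Their part in the *Hox* levels was not tested. By contrast, 15 of the 16 measured somatic mesoderm markers were above it in at least 1 cell.

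*Hoxb1*, *Hoxd1* and *Hoxd9* reached the highest levels among the members, and their upstream sequences are shown for that reason, as the 250 bases before the RefSeq start site (GRCm38.p6), read 5′ to 3′ on the gene's strand. The letters searched on both strands were TGATNNAT, a core to which PBX and HOX proteins bind together, TTTATNG, a core for CDX proteins, and GGTCTCTAA, a core for PRDM14. A match to TGATNNAT is in capitals.
*Hoxb1*, chr11:96365508-96365757 (+): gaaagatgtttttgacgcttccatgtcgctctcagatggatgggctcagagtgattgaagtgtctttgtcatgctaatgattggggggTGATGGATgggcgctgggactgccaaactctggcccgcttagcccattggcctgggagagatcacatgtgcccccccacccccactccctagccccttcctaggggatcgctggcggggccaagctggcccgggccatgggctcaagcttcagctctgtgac
*Hoxd1*, chr2:74762730-74762979 (+): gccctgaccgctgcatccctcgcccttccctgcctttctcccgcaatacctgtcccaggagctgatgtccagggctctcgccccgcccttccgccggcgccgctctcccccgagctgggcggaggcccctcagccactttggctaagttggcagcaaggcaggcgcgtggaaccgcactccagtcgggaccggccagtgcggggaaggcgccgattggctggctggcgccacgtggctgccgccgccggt
*Hoxd9*, chr2:74697513-74697762 (+): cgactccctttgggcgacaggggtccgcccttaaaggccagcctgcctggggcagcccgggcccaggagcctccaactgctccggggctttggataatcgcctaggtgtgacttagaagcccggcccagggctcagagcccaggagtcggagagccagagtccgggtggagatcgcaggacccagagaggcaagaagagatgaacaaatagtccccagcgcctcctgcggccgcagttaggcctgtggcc
The upstream sequence of *Hoxb1* held the PBX and HOX core 162 bases before the start site, as TGATGGAT, and those of *Hoxd1* and *Hoxd9* held none of the 3 letter sets. Of the members, 19 were matched to 21 RefSeq promoters, and the same core was found in 3 of the 21 (*Hoxa2*, *Hoxb1* and *Hoxd11*), beside 7.68% of all 32851 promoters. In *Hoxa2* it read ATCAATCA, the core on the opposite strand, 111 bases before the start site. The CDX core was in 0 of the 21 beside 9.81% of all promoters, and the PRDM14 core in 0 beside 0.24%. The median GC content of the upstream sequences was 59.2% for the members and 52.4% for all promoters. A match in these letters describes the sequence and is no evidence of binding.

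*Hox* genes were above the floor less often than genes at large, although every cell had at least 1 member above it. In some cells these were only *Hoxa3*, *Hoxa5* or *Hoxc6*, whose low levels are described below. Without these 3 genes, cells 33 and 65 labelled WT and cells 79, 88, 91 and 98 labelled *Prdm14*+/- had 0 members above the floor. Of the 990 pairs of a member and a cell, 132 (13.3%) were above the floor, while 39.0% of such pairs were above it over all genes. In the same cells, 21 members exceeded the floor in at least 1 cell and 12 in none, beside 72.9% and 27.1% of all genes. None of the 33 was above it in every cell, as 9.4% of all genes were. The 12 were *Hoxa7*, *Hoxa11*, *Hoxa13*, *Hoxb7*, *Hoxb13*, *Hoxc8*, *Hoxc10*, *Hoxc13*, *Hoxd3*, *Hoxd10*, *Hoxd11* and *Hoxd12*. At the level of 8, 51 pairs (5.15%) and 15 members were left, beside 31.5% of the pairs over all genes, and 18 members exceeded 8 in no cell, beside 40.6% of all genes. A value at the floor is a limit of the measurement in 1 amplified cell and does not show that the transcript was absent.

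**Figure D1:**
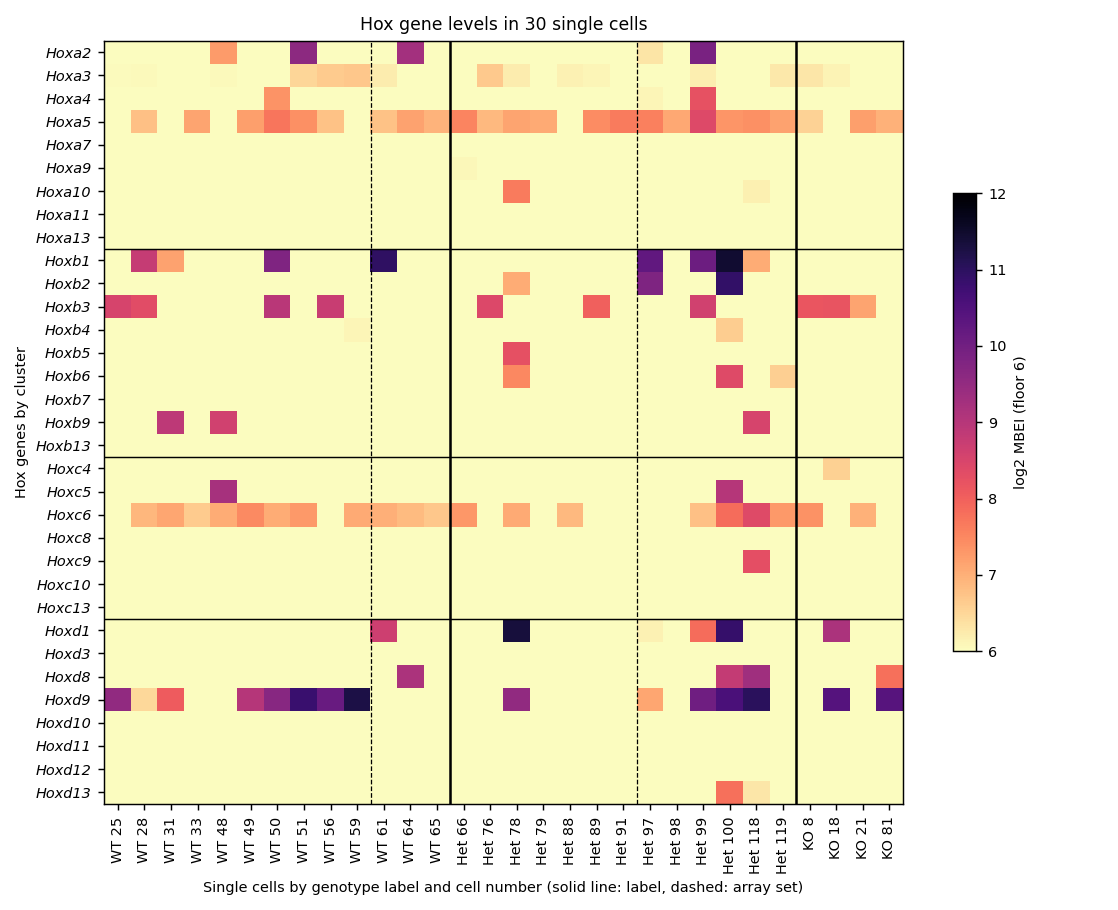
Heat map of the level (log2 MBEI, floor 6) of the 33 *Hox* genes, in rows ordered by cluster and paralogue number, in the 30 single cells, in columns grouped by label (Het for *Prdm14*+/-, as in the other plots) with the array sets divided by dashed lines. Most of the map is at the floor, *Hoxa5* and *Hoxc6* form pale bands between 6 and 8.39, and the darkest fields are those of *Hoxb1*, *Hoxb2*, *Hoxd1* and *Hoxd9* in single cells.

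By cluster, 18.9% of the pairs were above the floor for *Hoxa*, 11.1% for *Hoxb*, 11.4% for *Hoxc* and 11.25% for *Hoxd*. The order was different at the level of 8, with 1.85% for *Hoxa*, 8.15% for *Hoxb*, 1.90% for *Hoxc* and 8.33% for *Hoxd*. The change of order comes from a few low levels, since *Hoxa3*, *Hoxa5* and *Hoxc6* held 60 of the 132 pairs above the floor but 2 of the 51 above 8. Without them, 72 of 900 pairs (8%) were above the floor, 5.24% of those of *Hoxa* and 2.22% of those of *Hoxc*. This omission was chosen after the values were seen.

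In 3 classes of paralogue number, detection was most frequent in the lowest. The members numbered 1 to 3 were above the floor in 22.9% of their pairs, those numbered 4 to 8 in 16.7% and those numbered 9 to 13 in 5.71%. Without *Hoxa3*, *Hoxa5* and *Hoxc6* the shares were 17.8%, 5.33% and 5.71%, and at the level of 8, with all members, they were 11.4%, 2.78% and 4.05%. Single paralogue numbers did not follow this order. Paralogue 6 was above the floor in 38.3% of its pairs and paralogue 5 in 30%, mostly through *Hoxc6* and *Hoxa5*, against 23.3%, 13.3% and 28.9% for paralogues 1, 2 and 3. At the level of 8, paralogue 1 had the highest share, 16.7%, followed by paralogue 9 with 14.2% and paralogue 3 with 10%. The high-numbered class was carried by paralogue 9, with 20 of its 120 pairs above the floor, while paralogues 10 and 13 had 2 pairs each and paralogues 7, 11 and 12 had 0. Among the 4 members of paralogue 9, *Hoxd9* alone held 15 of the 20 pairs.

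**Figure D2:**
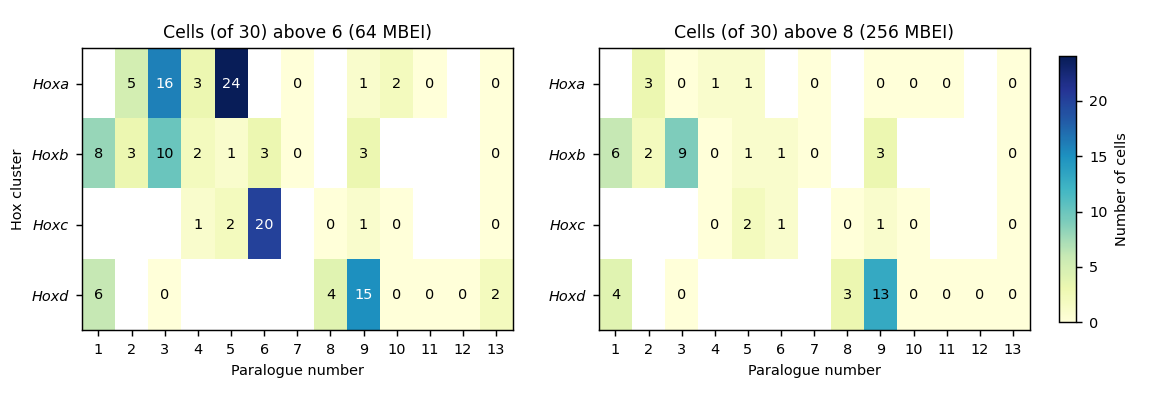
Number of the 30 cells in which each *Hox* gene was above 6 (left) or above 8 (right), by cluster (rows) and paralogue number (columns). Blank fields are numbers that the cluster lacks or that were not analysed here. *Hoxa5*, *Hoxc6* and *Hoxa3* lead at 6, with 24, 20 and 16 cells, and *Hoxd9*, *Hoxb3* and *Hoxb1* lead at 8, with 13, 9 and 6.

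*Hoxa5*, *Hoxc6* and *Hoxa3*, which pattern the cervical and thoracic region, were detected often but, by the probe sets used, within a narrow range of low values. *Hoxa5* lay between 6.55 and 8.39 in 24 cells, from the floor to 7.73 with a median of 6.78 in the cells labelled WT and from the floor to 8.39 with a median of 7.33 in those labelled *Prdm14*+/-, and with 6.55, 7.20 and 6.97 in the cells labelled KO numbered 8, 21 and 81. *Hoxc6* lay between 6.64 and 8.38 in 20 cells, from the floor to 7.47 with a median of 6.99 for the label WT and from the floor to 8.38 with a median of 6.79 for *Prdm14*+/-, and with 7.37 and 6.96 in cells 8 and 21 labelled KO. *Hoxa3* lay between 6.01 and 6.70 in 16 cells, close to the floor throughout. Its highest value was 6.70 for the label WT (median of 6.03) and 6.66 for *Prdm14*+/- (median at the floor), and it was 6.29, 6.13 and 6.01 in cells 8, 18 and 81 labelled KO. The labels overlapped for all 3 genes. Their other probe sets gave different counts. The second probe set of *Hoxa5* was above the floor in 3 cells, with a highest value of 9.18. Those of *Hoxc6* were above it in 6 and 0, with a highest value of 6.89. Those of *Hoxa3* were above it in 8, 4 and 0, and the first of these exceeded 8 in 6 cells and reached 9.43. The low range of *Hoxa3* is therefore that of the probe set used. The probe sets used for *Hoxa5* and *Hoxc6* carry the suffix _x_at, which is given to sets with probes that may also match other transcripts. Whether other transcripts added to these levels was not tested.

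*Hoxb1*, which patterns the hindbrain and is activated early in the primitive streak, was at the floor in most cells and ran from 7.04 to 11.46 in the others. It was above the floor in 8 cells and above 8 in 6 of these. Among the 13 cells labelled WT it was 8.77 in cell 28, 7.17 in cell 31, 9.79 in cell 50 and 10.97 in cell 61. Among the 13 labelled *Prdm14*+/- it was 10.23 in cell 97, 10.06 in cell 99, 11.46 in cell 100 and 7.04 in cell 118. These 4 cells all belonged to array set 3, and the 7 cells of the same label in set 2 were at the floor. All 4 cells labelled KO, also in set 3, were at the floor. The share of cells above the floor was 30.8% for the label WT and the same for *Prdm14*+/- (exact Clopper-Pearson 95% interval of 9.09% to 61.4% each). It was 0% for KO with an upper bound of 60.2%. These intervals take each cell as independent, although no embryo is named, and they do not compare the labels.

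*Hoxd1*, the other measured gene of paralogue 1, was above the floor in 6 cells. Cells 78, 97, 99 and 100 labelled *Prdm14*+/- had 11.33, 6.15, 7.85 and 10.87, cell 61 labelled WT had 8.66 and cell 18 labelled KO had 9.16. The genes of paralogue 2, which act in the hindbrain and branchial arches, appeared in fewer cells. *Hoxa2* was 7.26, 9.59 and 9.27 in cells 48, 51 and 64 labelled WT, and 6.31 and 9.89 in cells 97 and 99 labelled *Prdm14*+/-. *Hoxb2*, the neighbour of *Hoxb1*, was above the floor in 3 cells labelled *Prdm14*+/- alone, at 7.04 in cell 78, 9.80 in cell 97 and 10.92 in cell 100. Cells 97 and 100 were also among the highest for *Hoxb1*.

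The other probe set of *Hoxb3* was above the floor in 0 cells, with a highest value of 0. By the probe set used, *Hoxb3* was above the floor in 10 cells within 7.14 to 8.95. It was 8.53, 8.32, 8.95 and 8.72 in cells 25, 28, 50 and 56 labelled WT, and 8.41, 8.01 and 8.61 in cells 76, 89 and 99 labelled *Prdm14*+/-. In the cells labelled KO it was 8.17 in cell 8, 8.19 in cell 18, 7.14 in cell 21 and at the floor in cell 81. The share of cells above the floor was 30.8%, 23.1% and 75% in the order WT, *Prdm14*+/- and KO. The interval for KO ran from 19.4% to 99.4%. It takes each cell as independent and does not compare the labels. The third measured gene of the paralogue, *Hoxd3*, was at the floor in every cell, so *Hoxa3*, *Hoxb3* and *Hoxd3* did not share a pattern over cells.

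*Hoxd9*, a gene of the posterior trunk and limb, was above the floor in 15 cells and above 8 in 13, the most for any member at that level. In the cells labelled WT it ran from the floor to 11.24 with a median of 8.08, and it was above the floor in 8 of the 10 cells of array set 1 and 0 of the 3 of set 2. In the cells labelled *Prdm14*+/- the median was at the floor and the highest value was 11.02, with cell 78 of set 2 at 9.52 and cells 97, 99, 100 and 118 of set 3 at 7.11, 10.02, 10.58 and 11.02. In the cells labelled KO it was 10.42 in cell 18, 10.40 in cell 81 and at the floor in cells 8 and 21. High and floor values therefore stood side by side under every label. *Hoxd8*, the member next to *Hoxd9*, was above the floor in 4 cells, at 9.15 in cell 64 labelled WT, 8.79 and 9.31 in cells 100 and 118 labelled *Prdm14*+/- and 7.80 in cell 81 labelled KO, and 3 of these 4 cells were also above the floor for *Hoxd9*.

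**Figure D3:**
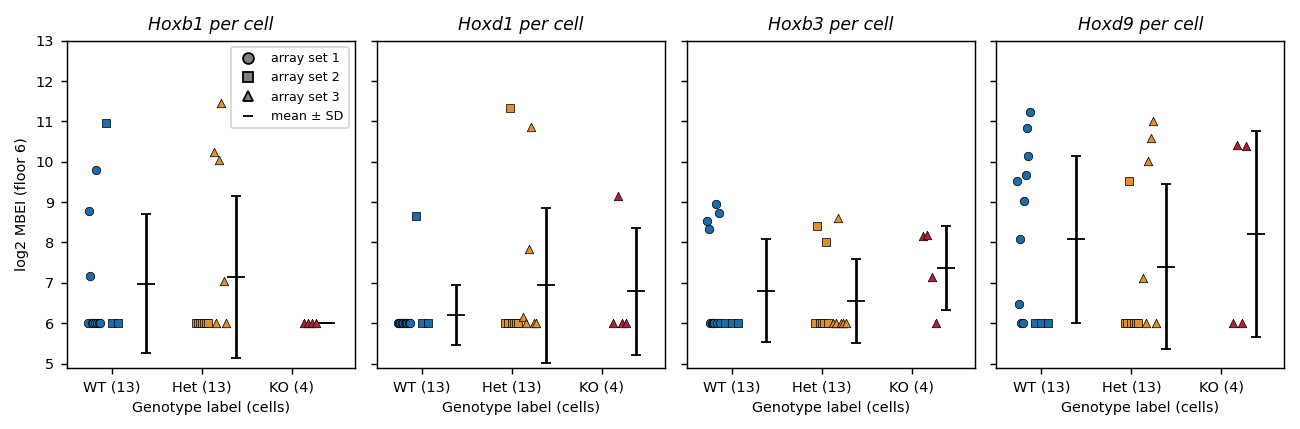
Level (log2 MBEI, floor 6) of *Hoxb1*, *Hoxd1*, *Hoxb3* and *Hoxd9* in each cell by label, with the marker shape giving the array set and the bar the mean ± SD of the label. Points at 6 are at the floor. *Hoxb1* is at the floor in the 4 cells labelled KO and in the 7 labelled *Prdm14*+/- of set 2, whereas *Hoxd9* spans the floor to above 10 under every label.

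The remaining members were above the floor in 1 to 3 cells each. *Hoxb6* was 7.48, 8.37 and 6.59 in cells 78, 100 and 119 labelled *Prdm14*+/-. *Hoxb9* was 8.89 and 8.61 in cells 31 and 48 labelled WT and 8.52 in cell 118 labelled *Prdm14*+/-. *Hoxa4* was above the floor in 3 cells with a highest value of 8.23. *Hoxa10*, *Hoxb4*, *Hoxc5* and *Hoxd13* each exceeded the floor in 2 cells, and *Hoxa9*, *Hoxb5*, *Hoxc4* and *Hoxc9* in 1. Of these, *Hoxc5* (9.01 in cell 100 labelled *Prdm14*+/- and 9.23 in cell 48 labelled WT), *Hoxb5* (8.26 in cell 78) and *Hoxc9* (8.29 in cell 118) passed 8. *Hoxc4* was the single member seen above the floor only in a cell labelled KO, at 6.58 in cell 18.

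The number of members above the floor in a cell had similar means under the 3 labels but a wider spread in the cells labelled *Prdm14*+/-. It was 4.08 ± 1.32 (SD, n = 13 cells; range of 2 to 6, median of 4) for the label WT. It was 4.85 ± 3.63 (SD, n = 13; range of 1 to 11, median of 3) for *Prdm14*+/-, and 4 ± 0.82 (SD, n = 4) for KO, whose cells 8, 18, 21 and 81 had 4, 5, 3 and 4. The differences of -0.08 between the labels KO and WT, -0.85 between KO and *Prdm14*+/- and 0.77 between *Prdm14*+/- and WT were each smaller than their pooled SDs of 1.24, 3.26 and 2.73. Above 8 the means were 1.62, 1.92 and 1.25 in the order WT, *Prdm14*+/- and KO. The count did not follow the overall detection of the array, since its Pearson correlation with the share of all genes above the floor was 0.15 over the 30 cells (Spearman's rho of 0.10).

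Within the label *Prdm14*+/-, the count moved with the array set. It was 3.14 ± 2.73 (SD, n = 7) in set 2 and 6.83 ± 3.71 (SD, n = 6) in set 3. The 3 cells labelled WT of set 2 had 5, 4 and 2, and the 10 of set 1 averaged 4.20. Within set 3 the mean was lower for the label KO than for *Prdm14*+/-, by -2.83 with a pooled SD of 2.98, and with the array set as a block the difference between KO and WT was -3.36, against -0.08 without it. The block links these labels through the *Prdm14*+/- cells and leaves the 3 cells labelled WT of set 2 to stand for WT. Array set and label cannot be told apart for the cells labelled WT of set 1.

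**Figure D4:**
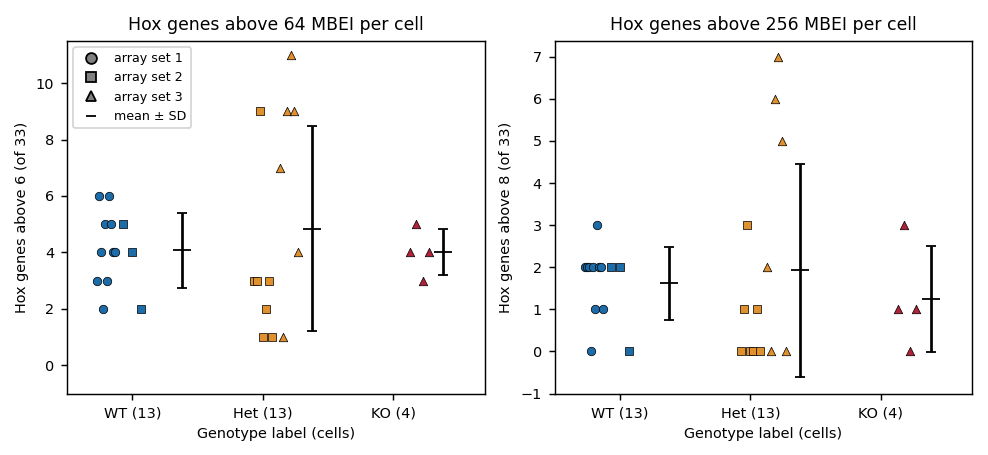
Number of the 33 *Hox* genes above 6 (left) and above 8 (right) in each cell by label, with the marker shape giving the array set and the bar the mean ± SD of the label. The cells labelled WT lie between 2 and 6 and those labelled KO between 3 and 5 at the lower level, whereas those labelled *Prdm14*+/- spread from 1 to 11, with 4 of the 5 cells at 7 or more in set 3.

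The mean floored levels of single members differed by less than 1 between labels, except that of *Hoxb1* between KO and *Prdm14*+/-. The floor limits such differences, since the 12 members at it in every cell differ by 0 in any comparison. The other members were often at the floor too, with 13.3% of all member pairs above it against 39.0% over all genes. The shares of all genes given below are therefore no like-for-like background. Between the labels KO and WT, 0 members were higher by at least 1 in mean floored level and 0 were lower by as much, where 7.9% of all genes were higher and 4.32% lower. *Hoxb1* lay closest to that threshold, with means of 6.00 and 6.98 and a difference of -0.98, below its pooled SD of 1.54. Between *Prdm14*+/- and WT, 0 members were higher and 0 lower, beside 2.42% and 1.95% of all genes. Between KO and *Prdm14*+/-, 0 were higher and 1 was lower, beside 6.81% and 3.7% of all genes. That member was *Hoxb1*, with a difference of -1.14 that was also below its pooled SD of 1.80. It fell under the threshold when any of cells 97, 99 or 100 labelled *Prdm14*+/- was left out, to -0.88, -0.89 and -0.78. The median difference over the 33 members was 0.00 between KO and WT, -0.02 between KO and *Prdm14*+/- and 0.00 between *Prdm14*+/- and WT, and the median over all genes was 0 in each.

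Within array sets more members passed this threshold, but so did a larger share of all genes, so the rise was not particular to the members. Within set 3, 0 members stood higher and 2 lower under the label KO than under *Prdm14*+/-, beside 8.6% and 5.62% of all genes, namely *Hoxb1* by -2.46 and *Hoxb2* by -1.45. Within set 2, 0 stood higher and 3 lower under the label *Prdm14*+/- than under WT, beside 6.02% and 8.3% of all genes. They comprised *Hoxb1* (-1.66), *Hoxa2* (-1.09) and *Hoxd8* (-1.05), each set by 1 of the 3 cells labelled WT, namely cell 61 for *Hoxb1* and cell 64 for the other two. With the array set as a block, 1 member was higher in the cells labelled KO than in those labelled WT (*Hoxb3*, 1.57) and 4 were lower, *Hoxb1* (-4.12), *Hoxa2* (-1.79), *Hoxd8* (-1.62) and *Hoxb2* (-1.31), beside 12.5% and 11.7% of all genes. *Hoxb2* was at the floor in all cells of both labels, so its value there comes from the *Prdm14*+/- cells that link the sets. *Hoxb3* was also higher in the label KO than in WT by 1.03, and than in *Prdm14*+/- by 1.29, when cell 81 labelled KO was left out.

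Several members were often above the floor in the same cell. Cell 100 labelled *Prdm14*+/- had 11 members above the floor and 7 above 8, including *Hoxb1* (11.46), *Hoxb2* (10.92), *Hoxd1* (10.87), *Hoxd9* (10.58), *Hoxc5* (9.01), *Hoxd8* (8.79) and *Hoxb6* (8.37). These genes lie in 3 of the 4 clusters. *Dppa3* and *Prdm14* were listed at 0 in this cell. Cell 78 of the same label had 9 members above the floor, led by *Hoxd1* (11.33) and *Hoxd9* (9.52), with *Hoxb1* at the floor and *Dppa3* at 0. Cell 118 also had 9, of which 5 belonged to paralogues 9 to 13 (*Hoxa10*, *Hoxb9*, *Hoxc9*, *Hoxd9* and *Hoxd13*), the most of that class in any cell, with *Dppa3* at the floor. Cells 99 and 97 had 9 and 7 members above the floor, with *Dppa3* at 9.03 and 8.07. In cell 99, 5 of the 9 belonged to paralogues 1 to 3, the most of that class in any cell, so the cells with many members did not share 1 set of them.

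Across all cells, the members were detected more often where *Dppa3* and other germ cell markers were low. Over the 30 cells, the Pearson correlation between the number of members above the floor and the *Dppa3* level was -0.69 (Spearman's rho of -0.65), and -0.60 without the 2 cells farthest from the median of *Dppa3*. It was -0.57 within set 1 (rho of -0.40) and -0.75 within set 2 (rho of -0.68), with 10 cells each. Within the label WT it was -0.44 (rho of -0.32). In set 3 *Dppa3* fell into 2 ranges, so no correlation is given. There, cells 97, 99, 100 and 118, with *Dppa3* of 9.03 or lower, had 7, 9, 11 and 9 members above the floor, and cells 98 and 119 labelled *Prdm14*+/-, with *Dppa3* of 12.92 and 12.12, had 1 and 4. The 4 cells labelled KO, with *Dppa3* from 11.98 to 12.80, had 3 to 5. The relation was not particular to *Dppa3*. Over the 30 cells the correlation of the number of members was -0.44 with *Prdm14* and -0.46 with *Prdm1*. With the mean of the germ cell markers without *Dppa3* and *Prdm14* it was -0.58. Within the label WT these 3 values were -0.72, -0.64 and -0.46. Values of 1 cell share an amplification and an array, so these correlations describe the cells and carry no p.

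The same relation was seen for *Hoxb1* alone. Its correlation with *Dppa3* was -0.63 over the 30 cells (rho of -0.64). Within set 1, where 3 cells were above the floor for *Hoxb1*, it was -0.90 (rho of -0.75). Within set 2 it was -0.46 (rho of -0.41), but this value rests on 1 cell above the floor, cell 61 labelled WT. The 8 cells above the floor for *Hoxb1* had *Dppa3* at the floor or up to 9.26, and the 16 cells with *Dppa3* above 10 all had *Hoxb1* at the floor. For *Hoxd9* the correlation was -0.31 over the 30 cells, -0.07 within set 1 and -0.46 within set 2, where cell 78 alone was above the floor. It was 0.28 within the label WT, where cell 59 combined the highest *Hoxd9* (11.24) with *Dppa3* at 10.10. The number of members above the floor also moved with the mean of the 16 measured somatic mesoderm markers, with a correlation of 0.71 (rho of 0.64), or 0.57 without the 2 cells farthest from its median. Within sets 1, 2 and 3 it was 0.58, 0.54 and 0.89. Without *Hoxa3*, *Hoxa5* and *Hoxc6* it was 0.25, 0.56 and 0.93 in these sets, and 0.26 within the label WT. The mean of these markers was 8.35 for the label WT, 8.04 and 8.64 for *Prdm14*+/- in sets 2 and 3, and 7.88 for KO. Cells 100 and 118 labelled *Prdm14*+/- had the highest single values, 9.60 and 9.58. The part of somatic mesoderm transcripts in the *Hox* levels was not tested.

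**Figure D5:**
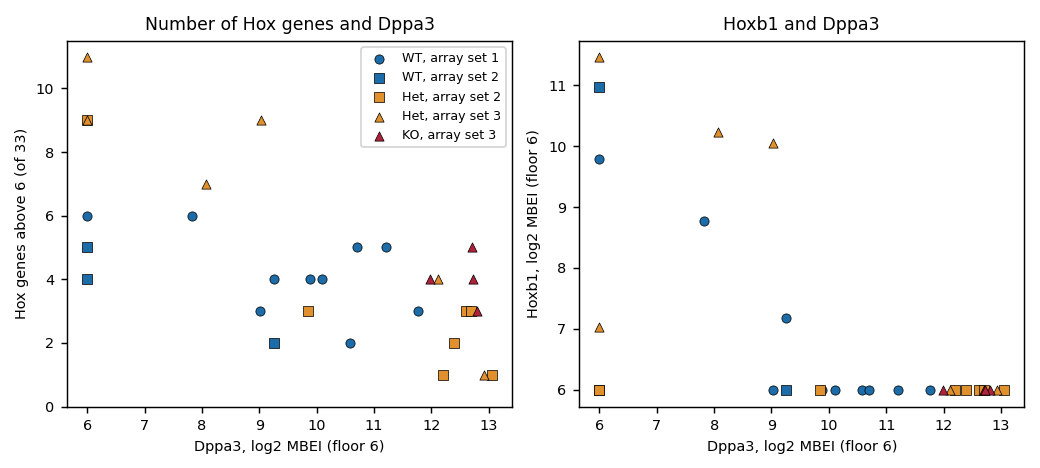
Number of the 33 *Hox* genes above 6 (left) and level of *Hoxb1* (right) against the level of *Dppa3* (log2 MBEI, floor 6), with 1 point per cell, the colour giving the label and the shape the array set. Points can coincide at the floor. Cells with *Dppa3* above 10 have at most 5 *Hox* genes above 6 and *Hoxb1* at the floor, and the cells with 7 to 11 *Hox* genes lie at *Dppa3* of 9.03 or lower.

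Genes that regulate *Hox* transcription were detected in 1 to 30 cells. Of 13 listed regulators 12 were measured. The retinoic acid genes *Rarb*, *Rara*, *Aldh1a2* and *Cyp26a1* were above the floor in 1, 3, 3 and 5 cells, *Cdx4* in 11, *Wnt3a* in 13, *Cdx1* in 18, *Fgf8* in 25, and *Rarg* and *Kmt2a* in 26 each. *Cdx2*, a caudal-type homeodomain factor that activates middle *Hox* genes, was above the floor in every cell within 9.58 to 11.88, and *Men1*, the menin subunit of an H3K4 methyltransferase complex, within 7.75 to 11.52. Between the labels KO and WT, 0 of the 12 were higher by at least 1 and 2 were lower, beside 7.9% and 4.32% of all genes. The 2 were *Cdx4* (-1.09), at the floor in the 4 cells labelled KO, and *Wnt3a* (-1.71), a ligand of the primitive streak that induces *Cdx* genes. Between KO and *Prdm14*+/-, *Fgf8* was higher by 1.48, while *Cdx4* (-1.41) and the retinoic acid synthesis gene *Aldh1a2* (-1.01) were lower, beside 6.81% and 3.7% of all genes. Between *Prdm14*+/- and WT, *Aldh1a2* was higher by 1.01, and *Wnt3a* (-1.07) and *Fgf8* (-1.26) were lower, beside 2.42% and 1.95% of all genes. Of these differences, that of *Wnt3a* between KO and WT alone exceeded its pooled SD between cells, 1.69, and *Fgf8* is also a somatic mesoderm marker. The labels KO and WT share no array set. With the set as a block, which rests on the 3 cells labelled WT of set 2, *Fgf8* (1.75) and *Kmt2a* (1.34) were higher in the cells labelled KO than in those labelled WT, and *Rarg* (-2.03), *Cdx4* (-1.99) and *Wnt3a* (-2.35) were lower. Over all genes, 12.5% were higher and 11.7% lower with the block.

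*Hoxb1* and 2 of these regulators tended to occur together. Its correlation over the 30 cells was 0.51 with *Cdx1* (rho of 0.56) and 0.52 with *Wnt3a* (rho of 0.54). Without the 2 cells farthest from the median of the regulator these were 0.41 and 0.35. The other listed regulators for which it was computed showed little over the 30 cells, with 0.14 for *Cdx4* (rho of 0.17) and 0.04 for *Fgf8* (rho of -0.01). For *Cdx4* the array sets differed, with -0.29 in set 1, -0.22 in set 2 and 0.62 in set 3. In set 3, cells 99, 100 and 118 alone were above the floor for *Cdx4*. The number of members above the floor had a correlation of 0.53 with *Cdx4* over the 30 cells, 0.25 with *Cdx1* and 0.27 with *Wnt3a*. The correlation of *Hoxb1* with *Hoxd1* was 0.43 (rho of 0.50).

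Of 9 listed cofactors, which bind DNA together with HOX proteins, 8 were measured, and *Pknox2* was at the floor in every cell. *Pbx4* was higher in the cells labelled KO than in those labelled WT by 1.16 and than in those labelled *Prdm14*+/- by 1.10, and *Pknox1* was higher than in *Prdm14*+/- by 1.39. With the array set as a block, *Pbx4* was higher by 2.10 in KO than in WT, and *Meis2* (-3.89) and *Pbx3* (-2.21) were lower. The 9 genes next to the clusters were detected in 9 to 30 cells. *Evx2* was above the floor in 9, *Smug1* in 10, *Skap1* in 12 and *Skap2* in 26. *Hibadh*, *Mtx2*, *Cbx5* and *Hnrnpa1* were above the floor in every cell, with medians of 10.89, 10.33, 11.26 and 11.90, and *Evx1*, a homeobox gene beyond the *Hoxa13* end of its cluster and active in the streak, in 29 cells. *Hoxa13* itself was at the floor in all 30. *Smug1*, which encodes a DNA glycosylase, was higher in the cells labelled KO than in those labelled WT by 1.80 and than in those labelled *Prdm14*+/- by 1.46. With the block, *Smug1* was higher by 3.24 in KO than in WT, and *Skap2* (-2.14) and *Cbx5* (-1.25) were lower. Without it, the differences of *Smug1* and *Pbx4* exceeded the pooled SD between cells, while that of *Pknox1* did not. Over all genes, 7.9% were higher and 4.32% lower between KO and WT without the block, and 12.5% and 11.7% with it. Between KO and *Prdm14*+/-, 6.81% were higher and 3.7% lower without the block. The block rests on the 3 cells labelled WT of set 2.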

How the data were processed

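Single-cell cDNA of 30 PGCs was measured on Affymetrix Mouse Genome 430 2.0 arrays. The authors calculated log2 MBEI values with dChip 1.3 (PM/MM difference model). The scaling of arrays was not given in the sources used here. Of the deposited log2 values of an array, a mean of 63.7% were 0. No 2 arrays were identical, and the number of arrays limits the precision.

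Probe sets were named through the platform annotation (34958 with 1 symbol, 932 with several, 9211 unnamed). Levels were floored at 6, means over cells were compared per label, and a difference of at least 1 was counted. The array set, read from the title codes, served as a block in a linear model fitted by least squares. The difference computation was tested on simulated data. Alternatives were floors of 4 and 8, quantile normalization, a shift of arrays to the same median, all probe sets of a gene, medians, the block, single sets and leaving out cells. All members were named, with values per cell for the 12 members above the floor in the largest numbers of cells. Genes of the regulator, cofactor and cluster edge lists were named where they differed by at least 1 between labels or were above the floor in every cell. Markers and marker lists served as checks. Members and lists were chosen with earlier results of these data known. Python 3.11.15, NumPy 2.4.6, pandas 2.3.3, SciPy 1.17.1 and matplotlib 3.10.9 were used.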

Additional observations from a re-analysis of the deposited data

Results flagged for a closer look

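Among the 4 cells labelled KO, 3 members had 1 cell apart from the other 3, which were all at the floor. *Hoxd1* was 9.16 in cell 18, *Hoxd8* was 7.80 in cell 81 and *Hoxc4* was 6.58 in cell 18. With 3 cells at the floor, any cell above it stands apart by this measure. The measure is set so that chance marks about 1 in 20 results with normal spread, which does not hold for these floored values. In all, 34 results were examined.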

How the results depend on the processing

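Quantile normalization, the shift of arrays and the use of all probe sets moved none of the counts per cell, shares or counts of members that differed beyond the spread between cells or 1.5 times. At a floor of 4, the cells labelled KO had 5.75 members above it and *Hoxa* 29.6% of its pairs. At that floor 1 member was higher and 2 lower between KO and WT, 2 and 2 between KO and *Prdm14*+/-, and 2 and 1 between *Prdm14*+/- and WT. At a floor of 8 the means were 1.62 for WT and 1.25 for KO, the shares 1.85% for *Hoxa*, 1.90% for *Hoxc* and 2.78% for paralogues 4 to 8, and 0 members were lower between KO and *Prdm14*+/-. By medians, 1 member was higher between KO and WT (*Hoxb3*), 2 were higher and 0 lower between KO and *Prdm14*+/- (*Hoxb3* and *Hoxd9* higher), and 1 was lower between *Prdm14*+/- and WT (*Hoxd9*). The share of all genes past the same difference was not computed at floors of 4 and 8 or by medians. The counts of members in those settings therefore have no background and are not read as results about the members. With the array set as a block, the number per cell differed by -3.36 between KO and WT, 1 member was higher and 4 lower there, 2 were lower between KO and *Prdm14*+/- and 3 between *Prdm14*+/- and WT, with the same 2 and 3 within sets 3 and 2. More of all genes passed the threshold too, 12.5% higher and 11.7% lower between KO and WT, against 7.9% and 4.32% without the block. Without *Hoxa3*, *Hoxa5* and *Hoxc6*, the means were 2.00 for WT and 2.00 for KO, and the shares 5.24% for *Hoxa*, 2.22% for *Hoxc* and 5.33% for paralogues 4 to 8. The cause of these shifts was not tested.

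Leaving out 1 cell at a time gave 0 to 1 members higher and 0 to 1 lower between KO and WT, and 0 to 2 higher and 0 to 1 lower between KO and *Prdm14*+/-. Here too the share of all genes was not computed. Without cell 8 or 21 labelled KO, *Hoxd9* was higher than in *Prdm14*+/- by 1.54. *Hoxb1* passed the threshold between KO and WT, at -1.06, without any 1 of the 9 cells labelled WT in which it was at the floor. Leaving out cells labelled WT or *Prdm14*+/- and the omission of the 3 genes were chosen after seeing the data. The difference of *Hoxb1* between KO and *Prdm14*+/-, the one past the threshold, did not turn positive under these alternatives (it was 0 by medians), but differences under the threshold changed sign. The number per cell between KO and WT went from -0.08 to 0.44 at a floor of 4, and between *Prdm14*+/- and WT from 0.77 to -0.52 with the block. *Hoxb3* went from 0.57 to -0.10 between KO and WT at a floor of 8. With the block, *Hoxd8* went from 0.21 to -1.62 and *Hoxd1* from 0.59 to -0.48 between KO and WT, *Hoxb1* from 0.16 to -1.66 between *Prdm14*+/- and WT, and *Hoxd9* from 0.80 to -0.25 between KO and *Prdm14*+/-. No paired analysis was possible because the cells carry no shared numbers and no embryo is named.

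With 1 amplified cell per array, low transcripts can lie at the floor by loss in amplification, and the signal over background limits what a floor value shows. The labels run against the *Prdm14* transcript, the array sets are nearly bound to the labels, and no embryo is named.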

Other observations

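The platform also held 8 probe sets that carry a *Hox* symbol outside the rule. The probe set shared by *Hoxb8* and *Hoxb7* was above the floor in 7 cells with a highest value of 10.56, 2 labelled WT, 4 labelled *Prdm14*+/- and 1 labelled KO, while the probe set of *Hoxb7* alone was above it in 0 cells. The antisense transcript *Hoxb5os* was above the floor in 6 cells and *Hoxa11os* in 5 and 0 by its 2 probe sets. *Hoxd3os1* was above it in 0 and 2, and both probe sets shared by *Hoxd4* and *Hoxd3* in 0.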
